A study of Mus musculus with 1 sample.

Results

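The receptors and bridging ligands by which phagocytes take up apoptotic cells and modified lipoproteins were examined in glia of the ventral midbrain (VM). The group held 10 genes picked by their function. The rule that names them uses no measured value, although results of these data were already known when it was written. They were the TAM receptors Mertk, Axl and Tyro3, their ligands Gas6 and Pros1, and the scavenger receptors Cd36, Msr1, Scarb1, Cd163 and Stab1. They made up 10 of 23282 gene rows, and each symbol matched a single row. The data came from 1 control RNA-seq library of primary mixed glia from the brain of ICR(CD-1) outbred mouse pups at postnatal day 5, grown in serum-containing medium, which the study describes as treated with DMSO vehicle only. The purpose of the study was to follow the effect of an SGK1 inhibitor on such cultures, and inhibitor-treated libraries were not analysed here. There is therefore no contrast between groups and no replicate, and each value below describes this culture alone. The number of pups behind the culture is not given in the sources used here.

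TAM receptors are receptor tyrosine kinases that do not touch the dying cell themselves. Gas6 and Pros1 (protein S) bind phosphatidylserine on the surface of the dying cell through a vitamin K-dependent domain, and bind the receptor on the phagocyte with their other end. Gas6 is a ligand of all TAM receptors, whereas Pros1 is known mainly as a ligand of Tyro3 and Mertk. In the brain, microglia use Axl and Mertk to clear apoptotic cells, astrocytes also carry Mertk, and Tyro3 is best known from neurons. Scavenger receptors bind modified lipoproteins, lipids, haemoglobin complexes or phosphatidylserine directly.

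All 10 genes had a value of 10 or more, the minimum taken here for detection, as did 67.2% of all rows. The deposited values were normalised read counts, and they ran from 21 for Cd163 to 17275 for Stab1, with a median of 2551.5 against 469 over all detected rows. Together the 10 genes held 0.184% of the sum of all values, which was 27569507. Because a long transcript yields more reads, deposited values are given as a description, and genes were compared by a length-scaled level, the value per kb of annotated exon expressed per 1000000 of the sum of such values. On this scale the median of the 10 genes was 57.4 and that of all detected rows 9.65. A total of 8 of the 10 genes lay above the median of detected rows. A total of 4 of the 10 (Gas6, Stab1, Axl and Msr1) lay in the top 10% of detected rows, a share fixed by construction at 10% for all detected rows. The lowest were Tyro3 and Cd163, and the highest level, that of Gas6, was 1072-fold that of Cd163.

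**Figure D1:**
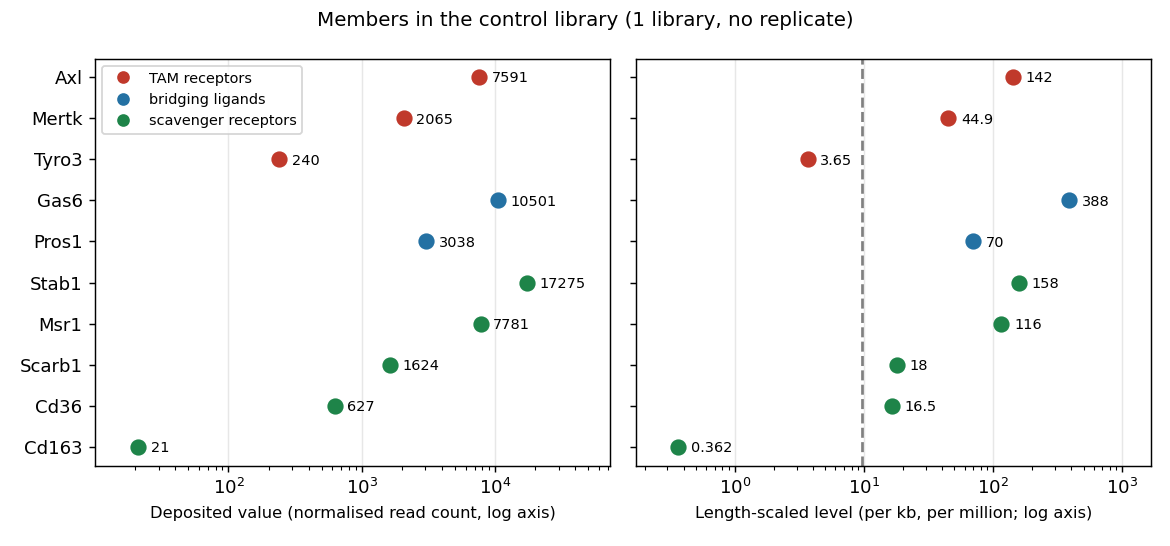
Each point is 1 gene in the control library, with the deposited value (normalised read count) on the left and the length-scaled level (per kb of exon, per 1000000) on the right, both on log axes. Colours mark TAM receptors, bridging ligands and scavenger receptors, and the dashed line is the median level of all detected rows (9.65); Tyro3 (3.65) and Cd163 (0.362) lie to its left and the other 8 genes to its right.

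**Figure D2:**
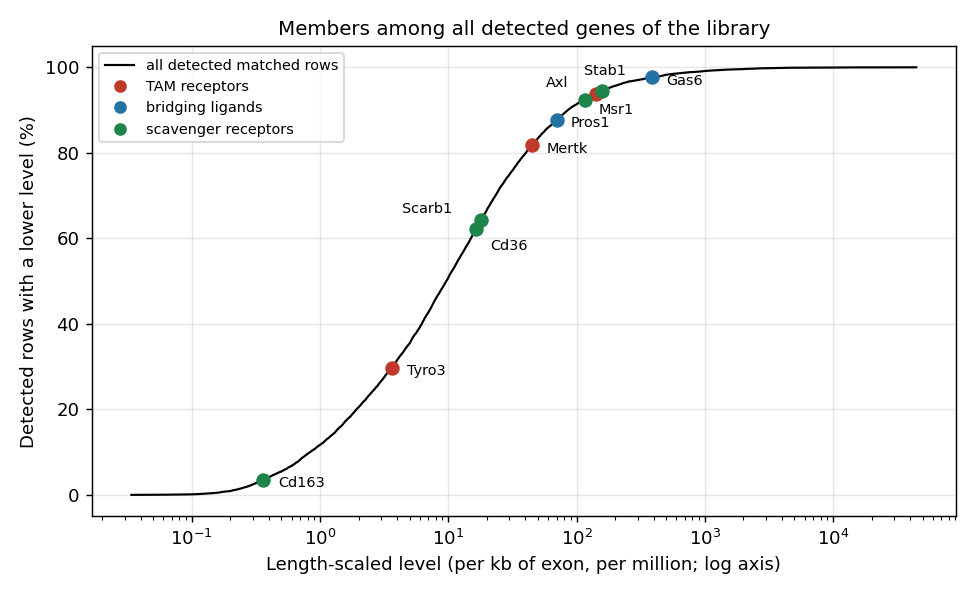
The line gives, for each length-scaled level on the log x axis, the percentage of detected rows with a lower level, and the points place the 10 genes on it. Gas6 exceeded 97.7% of detected rows, Stab1, Axl and Msr1 each more than 92%, and Cd163 only 3.52%.

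Among the TAM receptors Axl was highest and Tyro3 lowest, with Mertk between them. Axl lies on chr7:25757273-25788705 (GRCm38, minus strand) and had a value of 7591, a length-scaled level of 142 that exceeded 93.8% of detected rows. Mertk lies on chr2:128698956-128802894 (plus strand) and had a value of 2065 and a level of 44.9, above 81.7% of detected rows. Tyro3, on the same chromosome at chr2:119797733-119818104 (plus strand), had a value of 240 and a level of 3.65, above 29.8%. Tyro3 was thus the only TAM receptor under the median of detected rows.

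Per exon length, Axl was 3.17-fold above Mertk and 39.0-fold above Tyro3, and Mertk was 12.3-fold above Tyro3. Of the summed level of the 3 receptors, Axl held 74.5%, Mertk 23.5% and Tyro3 1.91%. The order of the receptors was the same with each of 4 definitions of gene length: the union of annotated exons, the longest transcript, the mean coding transcript and the coding sequence alone. Over these definitions Axl exceeded Mertk by 3.17-fold to 5.44-fold, and Mertk exceeded Tyro3 by 7.85-fold to 12.3-fold. The exons of the 3 genes overlapped no other annotated gene. No stretch of at least 90% identity to a transcript of another gene was found for them, the other TAM receptors included. Neuron markers were mixed. Of 8, 5 reached a value of 10 (Stmn2, Map2, Tubb3, Snap25 and Gad1), against 67.2% of all rows. Levels of the 8 ran from 0 to 63.9 with a median of 0.677. Stmn2, Tubb3 and Map2 lay above Tyro3, and Slc17a6, a marker of some glutamatergic neurons, was listed at 0. The part of neurons in the level of Tyro3 was not tested. In bulk RNA, fewer cells of a type and less RNA per cell cannot be told apart. These levels therefore do not say which cells of the culture, glia or others, carried each receptor.

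The promoter windows of Axl and Tyro3 are shown because these genes stood at either end of the receptor order. Each window runs from 250 bases before to 50 bases after the RefSeq transcription start (GRCm38.p6), 5′ to 3′ on the gene's strand. Capitals mark the GC box GGGCGG on either strand, the site of Sp1-type factors. The Axl window is chr7:25788684-25788983 (minus strand) and the Tyro3 window chr2:119799264-119799563 (plus strand). The RefSeq start of Tyro3 lies inside the GENCODE gene, downstream of its annotated 5′ end.
Axl: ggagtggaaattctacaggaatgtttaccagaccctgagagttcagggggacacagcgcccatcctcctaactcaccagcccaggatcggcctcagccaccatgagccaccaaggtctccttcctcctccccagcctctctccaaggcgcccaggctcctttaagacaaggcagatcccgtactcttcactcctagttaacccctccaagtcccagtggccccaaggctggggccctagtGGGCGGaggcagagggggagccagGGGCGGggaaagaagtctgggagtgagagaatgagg
Tyro3: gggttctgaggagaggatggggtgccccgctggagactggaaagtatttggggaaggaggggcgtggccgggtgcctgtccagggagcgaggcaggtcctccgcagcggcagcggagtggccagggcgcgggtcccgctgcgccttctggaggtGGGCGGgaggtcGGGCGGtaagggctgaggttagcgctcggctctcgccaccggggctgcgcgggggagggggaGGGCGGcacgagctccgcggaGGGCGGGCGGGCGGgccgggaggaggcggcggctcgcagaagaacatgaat

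The window of the low gene Tyro3 was the richer in CG dinucleotides. It held 31 CG dinucleotides and 6 GC boxes, some of them overlapping, at 73.3% G and C. The Axl window held 6 CG dinucleotides and 2 GC boxes at 60.3% G and C, and that of Mertk held 14 and 4 at 66%. Over the windows of all 32851 genes in the table, the median was 7 CG dinucleotides and 52.7% G and C, and 35.7% held a GC box. Over these 3 receptors the counts of CG dinucleotides and GC boxes ran opposite to the level, a description of 3 genes only. A motif match in such a window is a description of its letters, not evidence of a bound factor.

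Both bridging ligands lay above most detected genes, and Gas6 was the higher. Gas6 lies on chr8:13465374-13494490 (minus strand) and had a value of 10501, a level of 388 that exceeded 97.7% of detected rows and was the highest of the 10 genes. Pros1 lies on chr16:62854307-62929346 (plus strand) and had a value of 3038 and a level of 70.0, above 87.7% of detected rows. Gas6 was 5.55-fold above Pros1 per exon length and held 84.7% of their summed level. Across the 4 length definitions the ratio ran from 3.46-fold to 5.55-fold. The summed ligand level was 458 and that of the TAM receptors 191, a difference of 1.27 on the log2 scale that fell to 0.68 with the mean coding transcript. Gas6 alone was 2.73-fold above Axl, the highest of its receptors, by exon union and 1.58-fold with the mean coding transcript. These are transcript levels, and the serum in the growth medium, which carries protein S, is not seen by RNA-seq. Of the Gas6 exons, 34 bases overlap the opposite-strand gene Tmem255b, which was listed at 0, and Pros1 exons overlap no annotated gene.

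Partners fixed for the ligands and TAM receptors were present as well. Vkorc1, which recycles vitamin K, had a level of 61.7, and Ggcx, the carboxylase that modifies Gas6 and Pros1, had 8.89, close to the median of detected rows. Furin, a protease of the secretory pathway, was at 45.2. Among the metalloproteases known to release TAM ectodomains, Adam10 was at 93.5 and Adam17 at 57.0, so both were below Axl and above Mertk. Mfge8, a bridge of phosphatidylserine to integrins that needs no TAM receptor, was at 44.9, and Gas6 exceeded it by 8.66-fold, or by 3.23-fold with coding sequence alone. Whether Pros1 exceeded Mfge8 depended on the length used, with 1.56-fold by exon union and 0.932-fold by coding sequence.

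The scavenger receptors spanned the widest range, with Stab1 and Msr1 high, Scarb1 and Cd36 moderate and Cd163 near the bottom of the table. Stab1 (stabilin-1), a large receptor for phosphatidylserine and modified lipoproteins, lies on chr14:31139013-31168641 (minus strand). It had the highest deposited value of the 10 genes, 17275, which was the 169th highest value of all rows. Its exons are also the longest, at 10288 bases, and its level was 158, above 94.5% of detected rows. Of these bases, 112 overlap the opposite-strand gene Nt5dc2, whose own value was 1854. A stretch of 202 bases in a Stab1 transcript was 90.1% identical to the transcript of Gm37485.

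Msr1, the class A receptor for modified low-density lipoprotein, lies on chr8:39581685-39642673 (minus strand). It had a value of 7781 and a level of 116, above 92.4% of detected rows. By exon union Stab1 was 1.37-fold above Msr1, by longest transcript they were nearly level (1.01-fold), and by coding sequence the order was the other way (0.414-fold). Stab1 and Msr1 therefore have no fixed order per length, although their deposited values differed by 2.22-fold. Together they held 88.7% of the summed level of the 5 scavenger receptors.

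Scarb1, the receptor of high-density lipoprotein, lies on chr5:125277087-125341094 (minus strand), and Cd36, a receptor for fatty acids, oxidised lipoprotein and thrombospondin, on the same chromosome at chr5:17781690-17888801 (minus strand). Both belong to class B. Scarb1 had a value of 1624 and a level of 18.0, and Cd36 had a value of 627 and a level of 16.5, above 64.3% and 62.3% of detected rows. Their ratio of 1.09-fold by exon union became 2.85-fold by longest transcript and 4.29-fold with the mean coding transcript. The annotated exons of Scarb1 sum to 8500 bases against 3093 in its longest transcript, and its level was 18.0 by exon union but 59.9 with the mean coding transcript. Stab1 moved as widely, from 78.9 by coding sequence to 322 with the mean coding transcript. The mean coding transcript of Stab1 is 3001 bases, less than its 7713 coding bases, and that of Scarb1 is 1517 against 1754. Short annotated transcripts thus enter this mean, and the levels of Stab1 and Scarb1 with it are raised by them.

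Cd163, the receptor of haemoglobin bound to haptoglobin and a marker of border and perivascular macrophages, lies on chr6:124304656-124330527 (plus strand). Its value was 21, just over the detection minimum, and its level of 0.362 exceeded 3.52% of detected rows. It was the only one of the 10 genes under a value of 100. Stab1 stood 437-fold above it by exon union and Cd36 45.4-fold. Over the 4 length definitions these ran from 371-fold to 1213-fold for Stab1 and from 39.0-fold to 73.3-fold for Cd36. The 1213-fold came with the mean coding transcript, which is shorter than the Stab1 coding sequence. Up to 94 bases of a Cd163 transcript were 90.4% identical to a transcript of Slc37a1, and the part of such shared sequence in its value was not tested.

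The other markers fixed for border macrophages were mixed. By length-scaled level, Ms4a7 was at 160, Mrc1 at 104 and Pf4 at 42.7, and Cbr2, Folr2 and F13a1 were at 8.80, 7.80 and 7.59. Lyve1 was at 0.678 and Clec10a at 0.617. The median of the 8 was 8.30, under that of detected rows, and Cd163 at 0.362 was below each of them. By contrast, all 10 microglia markers lay above the median of detected rows, with levels from 40.0 to 2955 and a median of 401. Stab1, Msr1 and Axl were lower than that median. The part of either cell type in these receptor levels was not tested.

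The promoter windows of Stab1 and Cd163 are shown because they had the highest and lowest levels of the scavenger receptors. The Stab1 window is chr14:31168592-31168891 (minus strand) and the Cd163 window chr6:124304401-124304700 (plus strand). Both are printed as above, and capitals mark a CCAAT box, here as ATTGG on the printed strand.
Stab1: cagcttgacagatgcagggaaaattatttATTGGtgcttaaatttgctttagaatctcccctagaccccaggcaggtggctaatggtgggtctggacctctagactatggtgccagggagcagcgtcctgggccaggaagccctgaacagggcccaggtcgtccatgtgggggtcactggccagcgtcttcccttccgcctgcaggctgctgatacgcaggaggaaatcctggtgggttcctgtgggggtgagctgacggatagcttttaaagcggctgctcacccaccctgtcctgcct
Cd163: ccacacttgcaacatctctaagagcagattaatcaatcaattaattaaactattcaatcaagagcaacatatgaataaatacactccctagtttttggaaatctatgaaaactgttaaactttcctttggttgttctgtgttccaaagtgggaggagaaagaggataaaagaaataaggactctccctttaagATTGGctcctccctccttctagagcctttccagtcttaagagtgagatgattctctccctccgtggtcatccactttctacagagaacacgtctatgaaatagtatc

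Neither window held a GC box, and each held a single CCAAT box, a motif found in 37.4% of all windows. They differed in base composition, with 57.3% G and C for Stab1 and 38% for Cd163. Windows were available for 8 of the 10 genes, and those of Msr1 and Scarb1 were not used here. Of the 8, 6 held a GC box, against 35.7% of all windows. A CCAAT box was held by 3 (Cd36, Cd163 and Stab1), against 37.4% of all windows, and Cd36 held both. The Cd36 window, chr5:17835847-17836146, lies inside its GENCODE gene (chr5:17781690-17888801, minus strand), far downstream of the annotated 5′ end. None of the 8 held the PU.1-type site GAGGAAGT, the AP-1 site TGANTCA or the TATA box TATAAA on either strand, which occur in 3.20%, 7.81% and 13.6% of all windows. The 5 genes of the TAM receptor and ligand group each held at least 2 GC boxes, with 4 for Gas6 and 5 for Pros1, and Cd36 also held 2. The share of all windows with 2 or more GC boxes is not given here, so these counts have no base rate.

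Over the 10 genes, 38 of the 45 pairwise orders were the same with all 4 length definitions. The 7 that changed involved Stab1, Msr1 or Scarb1: Msr1 with Axl, Gas6 and Stab1, Stab1 with Axl and Gas6, and Scarb1 with Mertk and Pros1. Gas6 over Stab1 and Pros1 over Scarb1 changed only with the mean coding transcript (0.716-fold and 0.859-fold). For Stab1 and Scarb1 that length is shorter than the coding sequence. Gas6, Stab1, Msr1 and Axl therefore form an upper set whose internal order depends on the length used, apart from Gas6 over Axl. Tyro3 and Cd163 were the lowest under each definition.

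**Figure D3:**
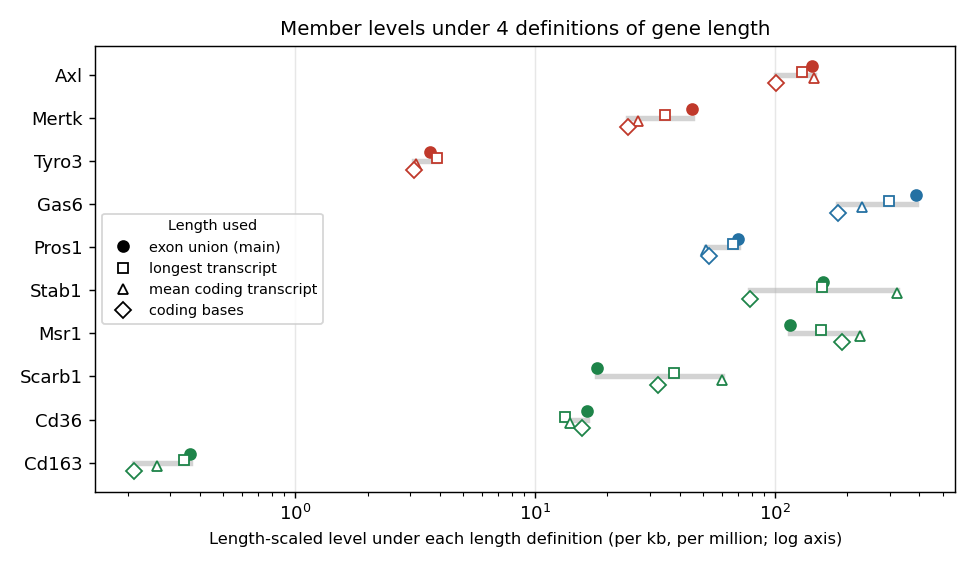
Each row is 1 gene and each symbol its length-scaled level (log axis) with 1 of 4 definitions of gene length, joined by a grey bar from lowest to highest. Filled circles are the union of exons used in the text. The bars of Stab1 and Scarb1 are the longest, reaching 322 and 59.9 with the mean coding transcript. For both genes that length is shorter than the coding sequence.

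Relatives of the scavenger receptors ran from 0.196 to 2066, a wider range than that of the receptors (0.362 to 158). Of 14 relatives, 13 were detected, against 67.2% of all rows, and 7 lay above the median of detected rows. The median level of the relatives was 9.83. Cd68, a lysosomal glycoprotein of phagocytes, was highest at 2066, followed by the large endocytic receptor Lrp1 at 286. The class A receptor Marco was at 190 and the collectin Colec12 at 129. Whether Marco exceeded Msr1 depended on length, with 1.65-fold by exon union and 0.462-fold by coding sequence. Scarb2, the lysosomal class B relative, was at 117, which was 6.50-fold above Scarb1 and 7.11-fold above Cd36 by exon union. The first became 3.16-fold by longest transcript and the second 12.3-fold by coding sequence. Mrc1, the mannose receptor, was at 104 and 286-fold above Cd163.

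Of the remaining relatives, Scara3 at 12.4 lay above the median of detected rows and the others below it. Cd5l was at 7.22, Olr1, a receptor of oxidised lipoprotein, at 7.15 and Scarf2 at 6.36. Scarf1 was at 1.76, Scara5 at 1.69 and Stab2 at 0.656, so that Stab1 exceeded its paralog Stab2 by 241-fold. Cd163l1, the relative of Cd163, had a value of 8 and was under the detection minimum.

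The partners fixed for the scavenger receptors included genes of haem and lipoprotein handling. Hmox1, haem oxygenase 1, which degrades the haem that Cd163 brings in, was at 520, although Cd163 itself was at 0.362. Hp, which encodes haptoglobin, was at 9.45. The lipoprotein genes Apoe and Lpl were at 44516 and 142, and Pdzk1, the adaptor that holds Scarb1 at the hepatocyte surface, was at 1.19. All 11 partners of receptors and ligands were detected, against 67.2% of all rows, with a median level of 57.0.

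Other receptors of phosphatidylserine, direct or through a bridge such as Mfge8, numbered 14. Of these, 12 were detected, against 67.2% of all rows, with a median level of 13.1. The integrin subunit Itgb5, which acts through such a bridge, was at 581, Havcr2 (TIM-3) at 199 and Trem2 at 111. Havcr1 and Timd2 were listed at 0. Mertk was below each of these 3. Trem2 was 2.46-fold above Mertk by exon union and 11.2-fold by coding sequence. The macrophage receptor Timd4 was at 0.954.

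Most opsonins other than Gas6 and Pros1 were abundant. All 12 were detected, against 67.2% of all rows, 9 lay in the top 10% of detected rows, and their median level was 320. The complement genes C1qa, C1qb and C1qc were at 2955, 1660 and 1276. Tulp1 and Tub, which are TAM ligands, were far below the median of detected rows, with Tulp1 lowest of the 12 at 0.184 and Tub at 0.404. By exon union Gas6 lay above the median of these opsonins (388 against 320), and by coding sequence below it (183 against 295). Pros1 was below it on both scales.

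The machinery that acts behind the receptors was detected throughout. All 16 genes of engulfment were at 10 or more, against 67.2% of all rows, with a median level of 38.8. Cdc42 was at 306, Vav1 at 211 and Rac1 at 188, and the adaptor Gulp1 was lowest at 3.71. Among 8 transcriptional regulators (median 23.5), Nr1h2 (LXRβ) was at 71.9 and Rxra at 40.3, with Pparg, which drives Cd36 in macrophages, lowest at 2.74. Among 7 genes that restrain engulfment or expose phosphatidylserine (median 20.7), Sirpa was at 464, Cd24a at 213 and Ano6 at 21.4, with Siglecg lowest at 0.333.

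Genes known to act with or below TAM signalling were present too. Of 7 (median 39.1), Ifnar2, a subunit of the interferon receptor that Axl and Mertk work with, was at 165, Twist1 at 77.1 and Ifnar1 at 68.3. Socs1, a suppressor of cytokine signalling, was lowest at 1.81. Over the 8 pathway lists, 86 of 89 genes were detected against 67.2% of all rows, and 30 lay in the top 10% of detected rows. The median of each list was above the 9.65 of all detected rows, but only just for the relatives of the scavenger receptors (9.83). The lists above it numbered 7 by longest transcript, and 6 when the background was rows at 100 or more. Exons of Adam17, Vkorc1, Furin, Pdzk1, Stab2, Rac1, Ano6 and Ifnar2, and of the markers Map2, F13a1 and Folr2, overlap another annotated gene. With an unstated strand setting, reads there could belong to either gene.

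**Figure D4:**
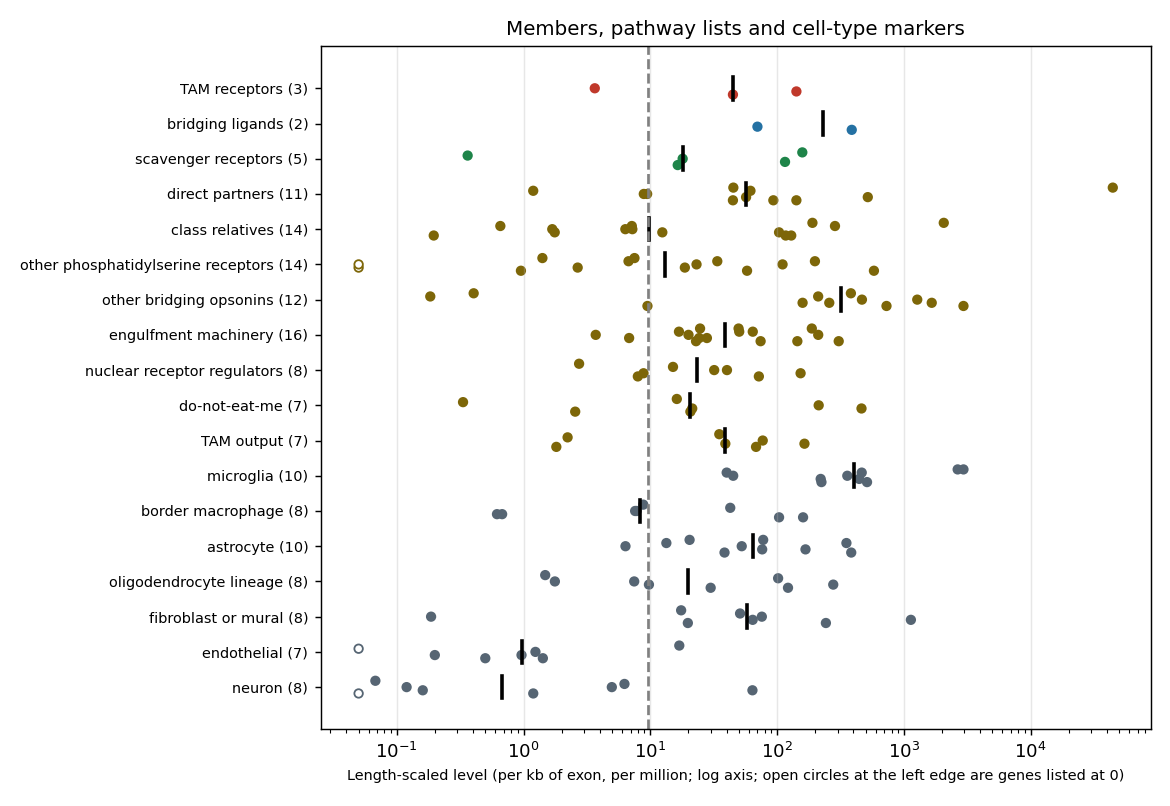
Each point is 1 gene, placed by its length-scaled level on a log axis, with the number of genes per list in brackets, the list median as a black bar and the median of all detected rows as a dashed line. Lists of receptors and ligands are at the top, pathway lists below them in brown and cell-type markers in grey, and open circles at the left edge are genes listed at 0. The microglia markers (median 401) and other bridging opsonins (median 320) lie furthest right. Both of these lists hold C1qa, the highest gene of each. Mrc1 is likewise in both the class relatives and the border macrophage markers.

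The remaining marker lists place the receptors in a mixed culture. The 10 astrocyte markers had a median level of 64.5 and ran from 6.37 to 385, and the 8 fibroblast or mural markers had a median of 57.6, with Rgs5 under detection at a value of 9. The 8 oligodendrocyte lineage markers had a median of 19.8. Of 7 endothelial markers, 5 were detected, against 67.2% of all rows. Levels of the 7 ran from 0 to 16.9 (Flt1) with a median of 0.964. Tek was listed at 0 and Cldn5 had a value of 3. The label of VM-derived glia therefore had its defining astrocyte and microglia markers present, beside fibroblast or mural genes. The study describes its VM-glial cultures, unless otherwise noted, as mostly astrocytes with microglia a minority. Medians over different marker genes do not measure shares of cells.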

How the data were processed

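One RNA-seq library of VM-derived glial cells was analysed, which the labels title Cont. Per the study's methods, reads were trimmed at a base quality of 20, mapped to GRCm38/mm10 with STAR and counted on exons of RefSeq genes with HTSeq-count, whereas the processing notes of the submitters name TopHat and edgeR for mm10. The authors describe the deposited values as normalised read counts, and as their scaling is not stated these whole numbers were taken as a score, not as raw counts. How they were normalised, whether counting used strand, where multi-mapped reads went and which versions ran are not given in the sources used here. The sequenced depth is unknown, so no counting interval is printed.

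Rows were joined to GENCODE M21 (GRCm38), which is not the RefSeq release the authors counted on. By symbol or RefSeq synonym, 22907 of 23282 rows (98.4%) matched. A level is the deposited value per kb of exon union, per 1000000 of the sum over matched rows. Percentiles are among 15490 matched rows with a value of 10 or more. The genes and lists were chosen with earlier results of these data known. Named genes were all 10 members, all genes of the partner and relative lists, and from each other list the 3 highest, the lowest and those at 0. A gene that this rule selects is not reported here. Genes outside this rule (Timd4, Tub, markers and overlapping genes) were named after their values were seen. No test was made, since there is 1 library. Similar transcripts were searched with BLAST 2.17.0. Alternatives were minima of 1 and 100, 3 other lengths, no length scaling, protein-coding genes only, and totals without the highest genes. The length scaling was tested on simulated data. Computation used pandas 2.3.3 and numpy 2.4.6 under Python 3.11.15, with plots in matplotlib 3.10.9.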

Additional observations from a re-analysis of the deposited data

How the results depend on the processing

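The order of the TAM receptors held under 4 alternatives (3 other lengths and no length scaling). That of the scavenger receptors held under 3 of them, and with coding sequence only 9 of 10 pairs kept their order, Stab1 over Msr1 changing to -1.27 on the log2 scale. The Gas6 over Pros1 ratio was 2.47 (log2) by exon union, 2.16 by longest and by mean coding transcript, and 1.79 by coding sequence and without length scaling. The ligand to receptor ratio of 1.27 (log2) became 1.12 by longest transcript, 0.68 by mean coding transcript, 0.88 by coding sequence and 0.45 without length scaling. These shifts follow from the lengths used. The median percentile of the 10 genes, 84.7, was 86.8 with a minimum of 1 for the background, 80.2 with a minimum of 100, 86.1 without length scaling, 82.6 by longest transcript and 84.6 among protein-coding genes. The number of the 10 genes detected was 10 with the minimum at 1 and 9 with it at 100, and of the pathway genes 87 and 76. Of all 23282 rows, 5075 were at 0. The share of all rows at 100 or more is not given here, so the counts at that minimum have no base rate beside them. The lists above the median of detected rows numbered 8, and 7 by longest transcript, 8 with the minimum at 1 and 6 with it at 100. The summed level of the 10 genes, 958, was 1112 without Rn45s and the 10 highest genes in the total. With 1 library and an unknown depth, no error between cultures can be given for any of these values.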
